A study of Rattus norvegicus with 16 samples.

Results

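The expression of 39 cell cycle and DNA replication genes was followed in the renal outer medulla of rats given 2-amino-4-nitrophenol (ANP), a nitro-substituted aminophenol, or its corn oil vehicle (VC). The genes were chosen by name, with earlier results of these data known, as 11 replication genes, 5 genes of the G1/S step and 23 mitotic genes. Each was read from the probe with the highest mean signal. A probe named 36 of the 39 genes, and all 36 passed the filter on dim probes and were tested (10 replication, 5 G1/S and 21 mitotic). Mki67, Bub1b and Mcm5 had no probe that the available gene names reach and were not analysed here. Male Crl:CD Sprague-Dawley rats began dosing by gavage at 5 weeks of age, once daily. The ANP groups received 750 mg/kg/day in corn oil and were sampled at day 1 (1 array of a pool of 3 rats), day 7 (1 array of a pool of 3 rats), day 14 (3 arrays of 1 rat each) and day 28 (3 arrays of 1 rat each). The VC groups received corn oil alone on the same days, with the same numbers of arrays, for 16 one-colour Cy3 arrays in all. The animals of the 4 time points were different rats, so day and age at sampling cannot be told apart, and the day 28 rats were the oldest in both treatments.

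A cell that is about to divide first commits to DNA synthesis under cyclin D, cyclin E and the E2F transcription factors, which switch on the genes for the replication helicase (the Mcm subunits), the sliding clamp Pcna and the enzymes that make deoxynucleotides. It then builds up Cdk1, the B-type cyclins, the Polo and Aurora kinases and the spindle motors, which carry it through mitosis. The B-type cyclins are destroyed as it exits. In a growing kidney some tubule cells still divide, and in an adult kidney tubule cells divide rarely unless they are replaced after injury. In bulk tissue a lower level may mean fewer cycling cells or less RNA per cycling cell, and the arrays cannot tell these apart.

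Levels are given as relative signal, which is the scanner's background-subtracted intensity divided by the 75th percentile of its array, so that 1 is the level of a fairly bright probe on the same array. Levels of different probes are not comparable, and only differences of the same probe between arrays are read. The 75th percentiles ranged from 809 to 1324 intensity units, and an array had 64.8% to 69.6% of its probes well above background. Log2 signals of arrays in the same group correlated at r = 0.987 to 0.993 across genes. Markers of the labelled tissue were bright on all 16 arrays, with summed relative signals of 467 to 1109 for the 6 straight proximal tubule markers and of 522 to 842 for 5 of 6 thick ascending limb markers. The lowest sum of each list was that of the ANP pool of day 1. All 36 measured genes were well above background on every array except Aurkb, which was not well above background on any of the 3 VC arrays of day 28 and was so on 2 of the 3 ANP arrays of that day, and which passed the filter through the day 14 groups. The 4 slides of the study overlapped the groups unevenly. Slide 1 held the 3 VC arrays and ANP replicate 1 of day 14, slide 2 held ANP replicates 2 and 3 of day 14 and the 3 VC arrays of day 28, slide 3 held the 3 ANP arrays of day 28, and slide 4 held the 4 pools.

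The promoters of the genes are shown because replication and mitotic genes carry different known elements near their start. Motifs were searched on both strands in the 300 bases from 250 before to 50 after the annotated start (RefSeq promoters, rat build GRCr8), which were available for 29 of the 39 genes. The E2F element was taken as TTTCCCGC or TTTGGCGC or TTTCGCGC or TTTGCCGC, the cell cycle homology region (CHR) as TTTGAA, and the CCAAT box as CCAAT. The E2F form was found in 6 of 9 replication promoters, 1 of 2 G1/S promoters and 1 of 18 mitotic promoters, against 2.25% of the 27457 promoters in the table. The CHR form was found in 1 of 9 replication, 0 of 2 G1/S and 12 of 18 mitotic promoters, against 18.1% of all promoters, and CCAAT in 6 of 9, 0 of 2 and 15 of 18, against 37.7%. CHR and CCAAT stood together in 0 of 9 replication and 11 of 18 mitotic promoters, against 7.25% of all. These letters describe the windows only, and factor binding was not measured.

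**Figure D1:**
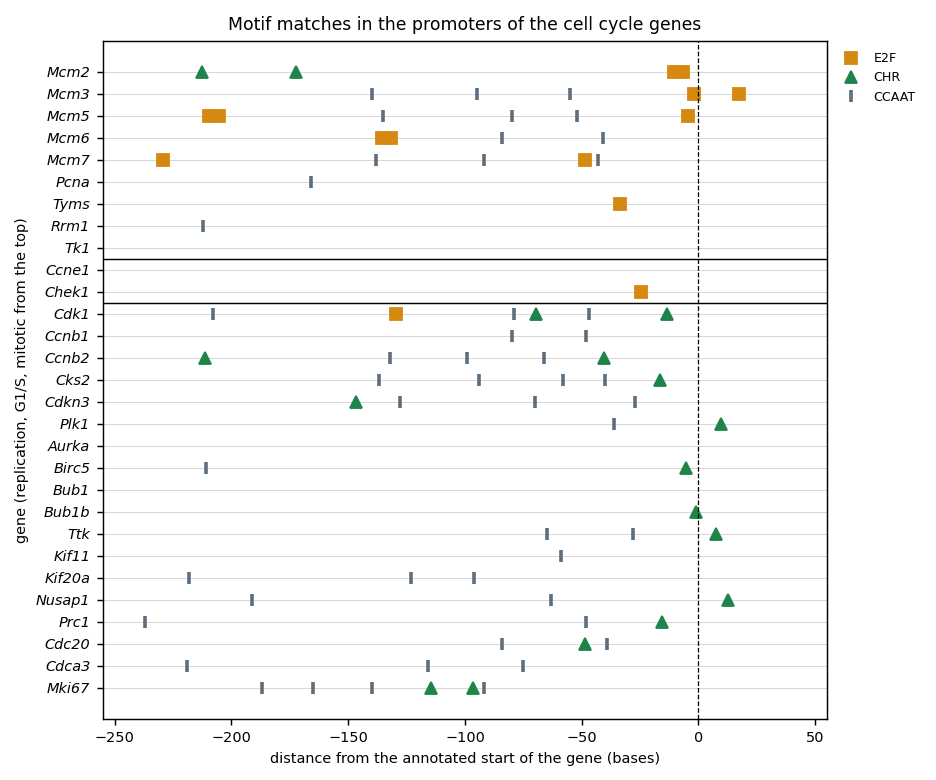
Positions of motif matches in the promoters of 29 cell cycle genes, with the distance from the annotated start in bases on the x axis and 1 gene per row (replication genes on top, then G1/S, then mitotic genes). Squares are E2F matches, triangles CHR matches and bars CCAAT matches. E2F matches lie mostly in the replication rows (6 of 9 genes) and CHR matches in the mitotic rows (12 of 18 genes).

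The following 8 promoters show both patterns, each as the 150 bases before the annotated start, 5′ to 3′ on the strand of the gene, with motif matches on either strand in capitals. The replication genes Mcm2 (chr4:122918095-122918244, minus strand), Mcm6 (chr13:42404353-42404502, minus strand) and Mcm7 (chr12:22163179-22163328, minus strand) and the checkpoint gene Chek1 (chr8:44629844-44629993, minus strand) hold an E2F match. In Mcm2 and Mcm6 a pair of E2F forms on opposite strands overlap, and in Mcm7 the E2F match at -52 to -45 shares 1 base with the CCAAT at -45 to -41. The mitotic genes Cdk1 (chr20:19265143-19265292, plus strand), Ccnb2 (chr8:79981659-79981808, minus strand), Prc1 (chr1:143659331-143659480, plus strand) and Cdc20 (chr5:137255800-137255949, minus strand) hold CHR and CCAAT matches, and Cdk1 has in addition the E2F match at -133 to -126.
Mcm2: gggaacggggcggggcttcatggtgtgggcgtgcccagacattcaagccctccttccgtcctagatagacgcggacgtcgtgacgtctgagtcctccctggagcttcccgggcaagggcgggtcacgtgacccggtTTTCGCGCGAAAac
Mcm6: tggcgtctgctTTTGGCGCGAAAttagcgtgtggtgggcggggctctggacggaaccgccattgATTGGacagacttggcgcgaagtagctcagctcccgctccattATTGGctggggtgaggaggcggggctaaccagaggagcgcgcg
Mcm7: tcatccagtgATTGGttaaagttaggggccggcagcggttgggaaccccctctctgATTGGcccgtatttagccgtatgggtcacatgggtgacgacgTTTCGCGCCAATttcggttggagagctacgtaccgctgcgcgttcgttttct
Chek1: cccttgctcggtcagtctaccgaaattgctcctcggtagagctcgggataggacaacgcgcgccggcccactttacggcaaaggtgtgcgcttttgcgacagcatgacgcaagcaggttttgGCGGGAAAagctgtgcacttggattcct
Cdk1: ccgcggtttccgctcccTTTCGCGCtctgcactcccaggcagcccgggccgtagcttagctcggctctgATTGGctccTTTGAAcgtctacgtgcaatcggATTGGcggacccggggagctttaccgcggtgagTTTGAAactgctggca
Ccnb2: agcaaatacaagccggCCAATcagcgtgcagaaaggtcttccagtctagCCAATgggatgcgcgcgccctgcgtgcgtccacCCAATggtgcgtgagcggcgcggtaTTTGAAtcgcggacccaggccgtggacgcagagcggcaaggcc
Prc1: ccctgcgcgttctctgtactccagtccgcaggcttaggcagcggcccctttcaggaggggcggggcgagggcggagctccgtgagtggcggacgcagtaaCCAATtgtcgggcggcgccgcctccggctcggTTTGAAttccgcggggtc
Cdc20: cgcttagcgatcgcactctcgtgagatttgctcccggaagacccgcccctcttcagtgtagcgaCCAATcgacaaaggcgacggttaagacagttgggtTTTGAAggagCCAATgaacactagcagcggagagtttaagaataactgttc

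Between day 14 and day 28 the mitotic genes were lower in vehicle rats and in ANP rats, with larger median differences than the replication genes; the difference between the classes was not tested. The median log2 difference, day 28 minus day 14, of the 21 mitotic genes was -0.88 in ANP rats and -0.82 in VC rats. For the 10 replication genes it was -0.44 in ANP rats and -0.30 in VC rats, and for the 5 G1/S genes -0.52 in ANP rats and -0.53 in VC rats. Over all 11849 genes tested the same medians were 0.03 and 0.01. In ANP rats 12 members fell and 0 rose past an adjusted p of 0.05 (limma, Benjamini-Hochberg over all genes), of which 10 were mitotic and 2 were replication genes, against a background of 1.73% of all genes lower and 3.61% higher. In VC rats 13 members fell, of which 10 were mitotic, 1 was a replication gene and 2 were G1/S genes, and 1 replication gene rose, against a background of 4.16% lower and 6.99% higher. The 3 day 28 arrays lay wholly below the 3 day 14 arrays for 27 of the 36 members in ANP rats (background 12.4%) and for 23 in VC rats (background 15.9%).

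**Figure D2:**
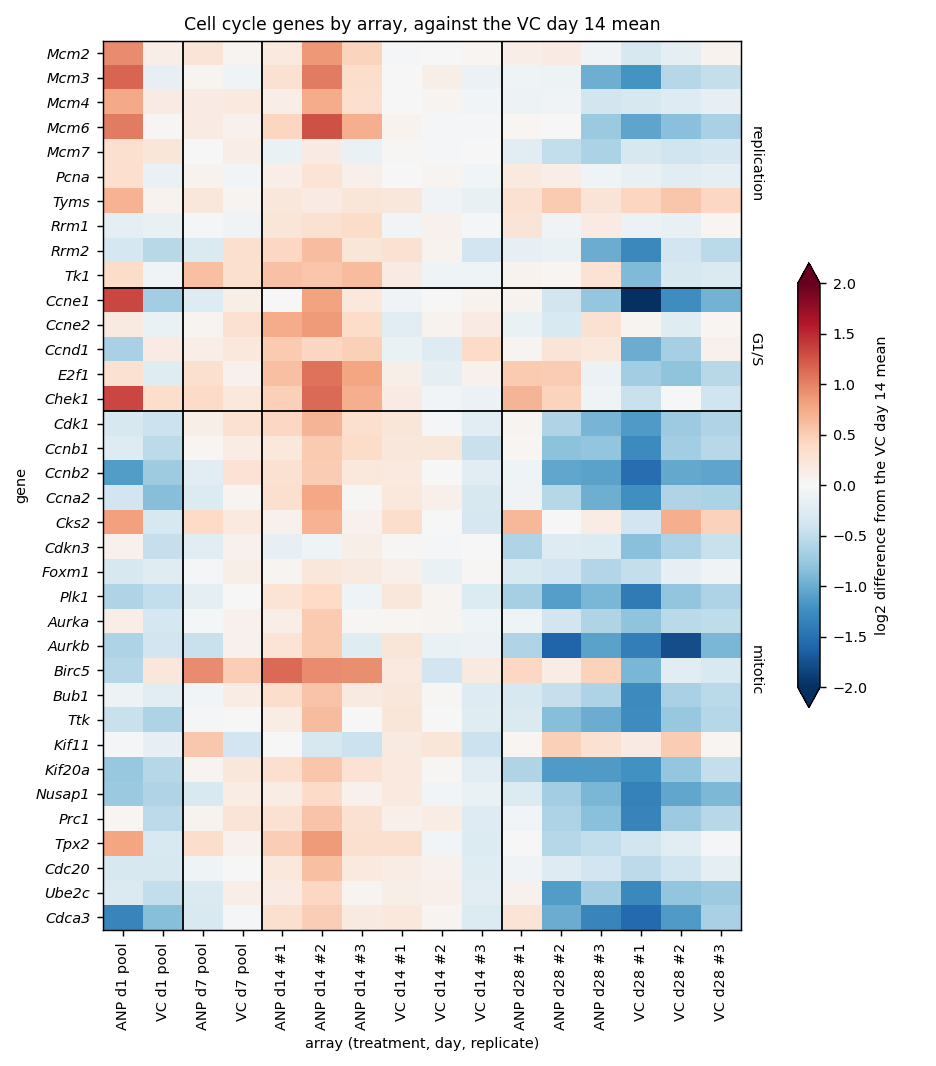
Log2 difference of each of the 36 cell cycle genes (rows) from its mean over the 3 VC arrays of day 14, on each of the 16 arrays (columns, ANP left of VC within each day; # gives the replicate, and red is higher, blue lower). Mitotic rows are mostly blue at day 28 in both treatments, most deeply in VC replicate 1, and mostly red in ANP replicate 2 of day 14.

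Cdk1, the kinase that drives entry into mitosis, had relative signals of 2.54, 1.61 and 1.28 in ANP rats at day 28, against 3.26, 3.92 and 3.04 at day 14. In VC rats Cdk1 read 1.11, 1.48 and 1.60 at day 28, against 2.88, 2.39 and 2.11 at day 14. The day 28 and day 14 arrays did not overlap in either treatment; Cdk1 fell in ANP rats (log2 difference -0.96 ± 0.24 (SE), adjusted p = 0.0479) and missed the threshold in VC rats (-0.82 ± 0.24, adjusted p = 0.0525). Ccnb2, a B-type cyclin that binds Cdk1, had 0.303, 0.157 and 0.154 in ANP rats at day 28, against 0.397, 0.459 and 0.374 at day 14. The corresponding Ccnb2 signals in VC rats were 0.112, 0.158 and 0.155 at day 28, against 0.371, 0.325 and 0.279 at day 14. Ccnb2 fell in both treatments with no overlap, by 2.1-fold in ANP rats (adjusted p = 0.0412) and 2.3-fold in VC rats (adjusted p = 0.0152). The other cyclins of this group, Ccnb1 and Ccna2, had log2 differences of -0.88 and -0.91 in ANP rats and of -0.84 and -0.82 in VC rats, none past the threshold.

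Plk1, the Polo kinase of spindle assembly, had relative signals of 0.618, 0.458 and 0.521 in ANP rats at day 28, against 1.19, 1.29 and 0.924 at day 14. In VC rats Plk1 read 0.368, 0.569 and 0.643 at day 28, against 1.15, 1.02 and 0.808 at day 14. It fell in both treatments without overlap (-1.09 ± 0.22, adjusted p = 0.0314 in ANP rats; -0.94 ± 0.22, adjusted p = 0.0242 in VC rats). Foxm1, a transcription factor of late cell cycle genes, fell in ANP rats (-0.58 ± 0.12, adjusted p = 0.0326), where it read 0.347, 0.328 and 0.286 at day 28, against 0.447, 0.501 and 0.487 at day 14. In VC rats Foxm1 overlapped between days, with 0.307, 0.384 and 0.407 at day 28, against 0.460, 0.390 and 0.437 at day 14 (-0.24 ± 0.12, adjusted p = 0.25). Cdkn3, a phosphatase that acts on cyclin-dependent kinases, differed by -0.33 ± 0.13 in ANP rats, which did not pass (adjusted p = 0.129). It fell in VC rats (-0.63 ± 0.13, adjusted p = 0.0136), with 0.0453, 0.0527 and 0.0594 at day 28, against 0.0816, 0.0795 and 0.0809 at day 14. Cks2, a small subunit of Cdk1 complexes, had log2 differences of -0.02 in ANP rats and 0.27 in VC rats, neither past the threshold.

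Among the kinases and checkpoint proteins of the spindle, Bub1 and Ttk fell in both treatments and Aurka in VC rats. Aurkb, the catalytic subunit of the chromosome passenger complex, passed the filter on dim probes only through the day 14 groups, where it was high, so its differences between days describe this probe and support nothing. It had 0.0303, 0.0152 and 0.0219 in ANP rats at day 28, against 0.0557, 0.0658 and 0.0387 at day 14 (-1.27 ± 0.29, adjusted p = 0.0401). On the VC arrays Aurkb read 0.0177, 0.0135 and 0.0243 at day 28, where it was not well above background, against 0.0541, 0.0421 and 0.0426 at day 14, so it was at least 2.23-fold lower at day 28 (adjusted p = 0.0173). That bound sets the day 14 mean against the dimmest probe signal that was well above background on each day 28 array, or the probe's own where higher. Bub1, a spindle checkpoint kinase, had 0.319, 0.289 and 0.258 in ANP rats at day 28, against 0.505, 0.585 and 0.447 at day 14. In VC rats the Bub1 signals were 0.163, 0.252 and 0.273 at day 28, against 0.464, 0.404 and 0.332 at day 14. The days did not overlap in either treatment, and the log2 differences were -0.82 ± 0.20 in ANP rats (adjusted p = 0.0444) and -0.82 ± 0.20 in VC rats (adjusted p = 0.0256). Ttk, the kinase also called Mps1, fell by 1.96-fold in ANP rats and 1.82-fold in VC rats, close to the threshold in both (adjusted p = 0.0481 and 0.047). Aurka, which acts at the spindle poles, had a log2 difference of -0.59 ± 0.16 in ANP rats (adjusted p = 0.058). In VC rats it read 0.503, 0.601 and 0.619 at day 28, against 0.900, 0.906 and 0.826 at day 14 (-0.62 ± 0.16, adjusted p = 0.0338). Birc5, the survivin subunit of the passenger complex, did not pass in either treatment (-0.66 ± 0.20 in ANP rats and -0.48 ± 0.20 in VC rats).

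The spindle proteins gave the deepest fall in ANP rats and the fall with the smallest adjusted p in VC rats. Kif20a, a kinesin of cytokinesis, had 0.488, 0.336 and 0.337 in ANP rats at day 28, against 0.936, 1.09 and 0.902 at day 14, a 2.55-fold fall (-1.35 ± 0.20, adjusted p = 0.0164). In VC rats it read 0.320, 0.434 and 0.532 at day 28, against 0.848, 0.753 and 0.633 at day 14 (-0.82 ± 0.20, adjusted p = 0.0297). Every day 28 array lay below every day 14 array of its treatment. Nusap1, which bundles spindle microtubules, had 0.415, 0.310 and 0.268 in ANP rats at day 28, against 0.558, 0.658 and 0.536 at day 14 (-0.84 ± 0.17, adjusted p = 0.0316). In VC rats Nusap1 read 0.198, 0.244 and 0.268 at day 28, against 0.573, 0.485 and 0.457 at day 14, a 2.14-fold fall (-1.10 ± 0.17, adjusted p = 0.00587). Prc1, which crosslinks the midzone of the spindle, missed the threshold in ANP rats (-0.90 ± 0.24, adjusted p = 0.0542) and fell in VC rats (-0.87 ± 0.24, adjusted p = 0.0403). Tpx2, an activator of Aurka, fell in ANP rats: it read 0.0815, 0.0549 and 0.0577 in ANP rats at day 28, against 0.114, 0.148 and 0.102 at day 14 (-0.91 ± 0.20, adjusted p = 0.0368), and differed by -0.22 in VC rats. Kif11, the kinesin that separates the spindle poles, ran the other way without passing the threshold (0.53 ± 0.20 in ANP rats, where the day 28 arrays lay above the day 14 arrays, and 0.24 ± 0.20 in VC rats), and another Kif11 probe gave 0.50 and 0.23. The mitotic exit genes Cdc20 and Ube2c, and the gene Cdca3, had log2 differences of -0.57, -0.78 and -1.01 in ANP rats. In VC rats these were -0.37, -0.94 and -1.12, and none passed the threshold in either treatment.

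Of the replication genes, Mcm6 fell in both treatments. This helicase subunit had relative signals of 0.161, 0.158 and 0.0942 in ANP rats at day 28, against 0.211, 0.379 and 0.260 at day 14. The VC rats gave 0.0755, 0.0878 and 0.100 at day 28, against 0.164, 0.152 and 0.155 at day 14. The days did not overlap in either treatment (-1.04 ± 0.24, adjusted p = 0.0404 in ANP rats; -0.85 ± 0.24, adjusted p = 0.0472 in VC rats). Mcm4 fell in ANP rats (-0.59 ± 0.14, adjusted p = 0.0466), with 0.841, 0.865 and 0.705 at day 28, against 0.993, 1.52 and 1.15 at day 14, and differed by -0.25 in VC rats. The other Mcm subunits Mcm2, Mcm3 and Mcm7 had log2 differences of -0.43, -0.95 and -0.41 in ANP rats and of -0.14, -0.74 and -0.35 in VC rats, none past the threshold. Tyms, the thymidylate synthase, differed by 0.15 ± 0.11 in ANP rats (adjusted p = 0.397) and was the 1 member that rose between the days in VC rats. It had 0.470, 0.512 and 0.462 in VC rats at day 28, against 0.407, 0.331 and 0.314 at day 14, a 1.38-fold rise (0.47 ± 0.11, adjusted p = 0.0239). Among the other genes of nucleotide supply and the clamp, differences from day 14 were smaller for Pcna (-0.09 in ANP rats, -0.19 in VC rats) and Rrm1 (-0.19 and -0.08) than for Tk1 (-0.46 and -0.50) and Rrm2 (-0.85 and -0.73), none past the threshold. Rrm1 and Rrm2 are the subunits of ribonucleotide reductase, and Tk1 is the thymidine kinase of the salvage pathway.

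Of the G1/S genes, Ccne1 and E2f1 fell in VC rats and none passed in ANP rats. Ccne1, which encodes cyclin E1, differed by -0.70 ± 0.41 in ANP rats (adjusted p = 0.298). Its relative signals were 0.0329, 0.0937 and 0.115 in VC rats at day 28, against 0.209, 0.221 and 0.231 at day 14. VC replicate 1 of day 28 was the lowest of these arrays, and the fall was 3.11-fold (-1.64 ± 0.41, adjusted p = 0.0306). E2f1, the transcription factor of G1/S genes, differed by -0.52 ± 0.18 in ANP rats (adjusted p = 0.108) and read 0.358, 0.332 and 0.394 in VC rats at day 28, against 0.626, 0.504 and 0.610 at day 14 (-0.68 ± 0.18, adjusted p = 0.0381). The G1 cyclin Ccnd1, the cyclin Ccne2 and the checkpoint kinase Chek1 had log2 differences of -0.30, -0.71 and -0.43 in ANP rats and -0.53, -0.06 and -0.28 in VC rats, none past the threshold.

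**Figure D3:**
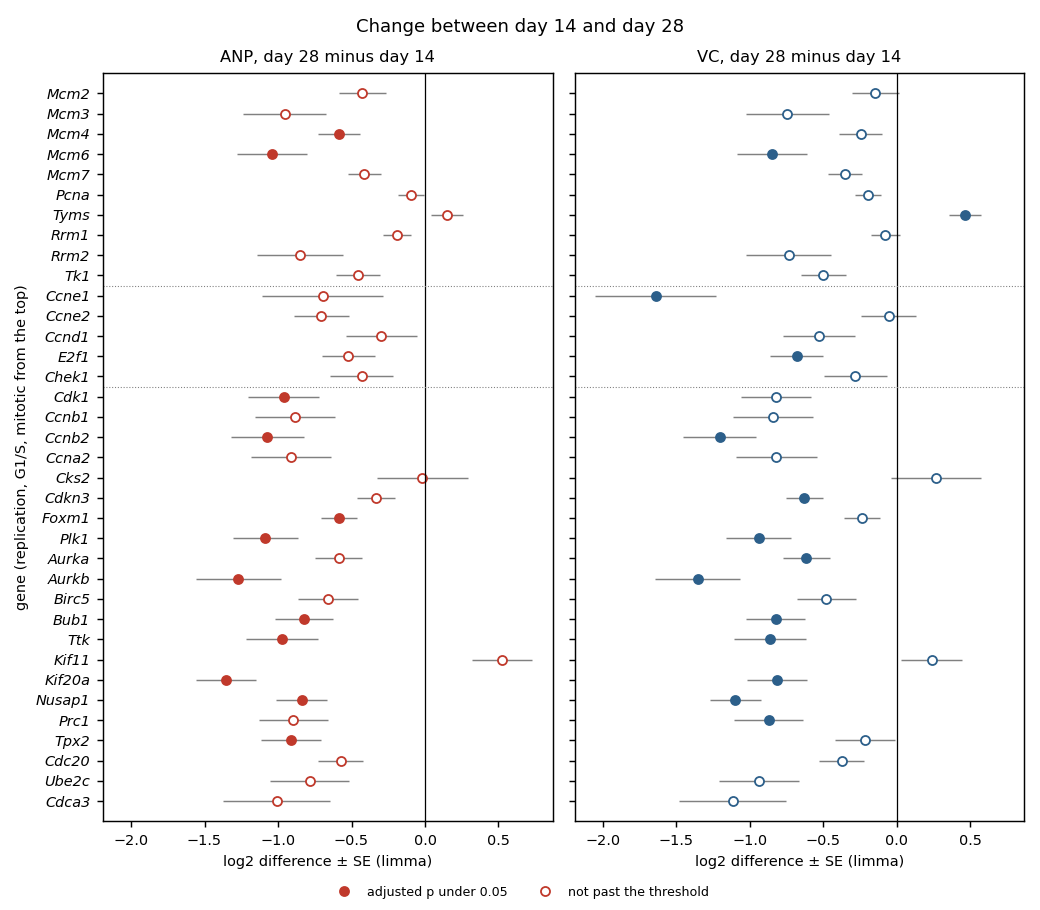
Log2 difference between day 28 and day 14 (x axis, ± SE from limma, 3 arrays a group) for each of the 36 genes, in ANP rats (left) and VC rats (right); filled points passed an adjusted p of 0.05. Filled points lie left of 0 in both panels except Tyms in VC rats, and most of them are mitotic genes.

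The ANP and VC comparisons between days share no array. The 8 genes that fell in both (Aurkb, Bub1, Ccnb2, Kif20a, Mcm6, Nusap1, Plk1 and Ttk) are 66.7% of the ANP list and 61.5% of the VC list. Without Aurkb, which the filter admitted through day 14, the counts of members that fell were 11 in ANP rats and 12 in VC rats, with 7 in both. Across the 36 members the log2 differences correlated between treatments at Pearson's r = 0.77 and Spearman's rho = 0.76, and 35 of 36 had the same sign, which describes genes that share animals and arrays and are not independent. The counts rest on few arrays. The count of 12 members in ANP rats became 3, 0 and 0 without ANP day 14 replicates 1, 2 and 3, and 0 and 5 without ANP day 28 replicates 2 and 3. It became 4 without VC day 14 replicate 2, and 3 and 7 without VC day 28 replicates 2 and 3. Over all genes, 205 were lower in ANP rats with all arrays. Without the same arrays, in the same order, these were 98, 1 and 0, then 0 and 313, then 100, then 72 and 131. The count of 14 members in VC rats became 1 and 2 without VC day 28 replicates 1 and 2, and 6, 3 and 7 without VC day 14 replicates 1, 2 and 3. All genes gave 828 higher and 493 lower in VC rats with all arrays. Without those VC day 28 replicates they gave 388 and 302 higher, and 126 and 128 lower. Without those VC day 14 replicates they gave 985, 411 and 421 higher, and 613, 173 and 165 lower. Over the 12 such fits the mitotic median stayed between -1.11 and -0.72 in ANP rats and between -0.97 and -0.62 in VC rats. The G1/S median moved more, to -0.31 in ANP rats without ANP day 28 replicate 3, and in VC rats to -0.30 without VC day 28 replicate 1 and -0.34 without VC day 14 replicate 3. The VC days lay on different slides. With slide as a fixed term, which rests on the ANP day 14 arrays of both slides, the VC medians were -0.90 for mitotic, -0.56 for replication and -0.73 for G1/S genes. That fit put 0 members past the threshold, and likewise 0 of all 11849 genes higher and 0 lower. In ANP rats day 28 lay on a slide of its own, so slide and day cannot be told apart there.

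Some lists of markers, of other cells and of tubular injury, moved with these differences, and their part in the result was not tested. Other lists had small median log2 differences, in ANP and VC rats: endothelium 0.0009 and -0.08, thick ascending limb -0.18 and -0.19, and collecting duct 0.05 and 0.15. Signs were opposite for straight proximal tubule (0.16 and -0.18) and erythroid markers (0.37 and -0.45). The lymphocyte medians were -0.58 and -0.02. The median of 5 of 5 cortical convoluted tubule markers, as log2 difference from the VC day 14 mean, was 0.64 to 1.17 in ANP rats at day 28, against -0.96 to -0.30 at day 14, and 1.39 to 2.01 in VC rats at day 28, against -0.77 to 0.72 at day 14. The summed relative signal of these markers was 289 to 356 in ANP rats at day 28, against 174 to 221 at day 14, and 381 to 415 in VC rats at day 28, against 167 to 309 at day 14. For 5 of 5 glomerular markers the summed signal was 15.8 to 17.1 in ANP rats at day 28, against 10.5 to 13.0 at day 14, and 25.9 to 34.4 in VC rats at day 28, against 13.0 to 15.4 at day 14. For 4 of 4 fibroblast and pericyte markers it was 8.75 to 12.4 in ANP rats at day 28, against 14.6 to 22.4 at day 14, and 8.12 to 11.5 in VC rats at day 28, against 16.1 to 18.2 at day 14. The tubular injury markers (10 of 11 measured) were lower at day 28 for 9 of 10 in ANP rats (median log2 difference -0.57) and for 7 of 10 in VC rats (median -0.09), with array medians of -0.04 to 0.04 in ANP rats at day 28, against 0.09 to 1.24 at day 14, and -0.11 to 0.05 in VC rats at day 28, against -0.06 to 0.28 at day 14. The macrophage and myeloid markers (9 of 10 measured) were lower at day 28 for 8 of 9 in each treatment (median -0.38 in ANP rats and -0.24 in VC rats). No marker of these lists was at 0. Within groups the cortical and mitotic medians did not keep 1 order. In ANP rats of day 28, replicate 1 had the lowest cortical (0.64) and the highest mitotic median (-0.06), and in VC rats of day 28 replicate 1 had the highest cortical (2.01) and the lowest mitotic median (-1.22). In VC rats of day 14, replicate 1 was highest in both (0.72 and 0.20) and replicate 3 lowest in both (-0.77 and -0.24), and in ANP rats of day 14 the highest mitotic median, in replicate 2 (0.53), stood beside the middle cortical one (-0.67).

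Most members had a higher mean in ANP rats than in VC rats at both days, and few passed the test. At day 14, 33 of the 36 members had a higher mean in ANP rats than in VC rats, with median log2 differences of 0.41 for replication, 0.66 for G1/S and 0.33 for mitotic genes, against 0.01 for all genes tested. The mitotic median was 0.17 without ANP day 14 replicate 2 and 0.19 without VC day 14 replicate 3. No member passed the adjusted threshold in limma (0 of 36, against a background of 0.363% higher and 0.118% lower), and 11 of 36 had an unadjusted p under 0.05, against 13.4% of all genes. The 3 ANP arrays lay wholly above the 3 VC arrays for 17 members and wholly below for 0, against a background of 10.2% above. These 17 were 7 replication genes (Mcm2, Mcm3, Mcm4, Mcm6, Pcna, Rrm1 and Tk1), 4 G1/S genes (Ccnd1, Ccne2, Chek1 and E2f1) and 6 mitotic genes (Birc5, Ccnb2, Cdc20, Cdk1, Kif20a and Prc1). Slide 1 alone, with 1 ANP array against 3 VC arrays, gave medians of 0.23 for replication (9 of 10 above 0), 0.52 for G1/S (5 of 5) and 0.27 for mitotic genes (20 of 21). The count of 0 became 1 without ANP day 28 replicate 3 and 1 without VC day 28 replicate 1. Over all genes, 43 were higher with all arrays, 41 without that ANP array and 31 without that VC array. Markers moved with the shift at day 14, and their part in it was not tested. The tubular injury markers were higher in ANP rats for 10 of 10 (median log2 difference 0.59), the glomerular ones lower for 5 of 5 (median -1.08) and the cortical tubule ones lower for 4 of 5 (median -0.72).

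Mcm2, a helicase subunit, had relative signals of 0.674, 1.07 and 0.804 in ANP rats at day 14, against 0.572, 0.590 and 0.608 in VC rats. Every ANP array lay above every VC array, the highest being replicate 2 (0.50 ± 0.16, adjusted p = 0.213). Mcm6 had 0.211, 0.379 and 0.260 in ANP rats, against 0.164, 0.152 and 0.155 in VC rats, with the same replicate highest (0.81 ± 0.24, adjusted p = 0.187). The remaining Mcm subunits gave 0.57 for Mcm3, 0.41 for Mcm4 and -0.04 for Mcm7. Ccnd1, the cyclin that couples growth signals to G1, had 33.5, 31.1 and 32.5 in ANP rats at day 14, against 21.4, 19.6 and 30.7 in VC rats, so that the lowest ANP array was close to the highest VC array (0.47 ± 0.24, adjusted p = 0.451). Chek1, the replication checkpoint kinase, had 0.0940, 0.148 and 0.111 in ANP rats, against 0.0752, 0.0651 and 0.0621 in VC rats (0.78 ± 0.22, adjusted p = 0.159). Kif11 was the mitotic gene furthest below 0 (-0.25 ± 0.20, adjusted p = 0.671), and its groups overlapped.

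At day 28 Tk1, E2f1 and Birc5 rose in ANP rats and no member fell (3 of 36 higher against a background of 4.49%, and 0 lower against 2.69%). Medians were 0.25 for replication, 0.70 for G1/S and 0.27 for mitotic genes, against 0.02 for all genes. Leaving out VC day 28 replicate 1 gave 0.13 for replication and 0.13 for mitotic genes, and leaving out ANP day 28 replicate 1 gave 0.05 for mitotic genes. Tk1 had relative signals of 1.90, 1.88 and 2.22 in ANP rats, against 0.986, 1.46 and 1.49 in VC rats, without overlap (0.63 ± 0.15, adjusted p = 0.0373). E2f1 had 0.829, 0.819 and 0.535 in ANP rats, against 0.358, 0.332 and 0.394 in VC rats, again without overlap and with ANP replicate 3 the nearest to the VC arrays (0.99 ± 0.18, adjusted p = 0.0148). Birc5 had 1.15, 0.950 and 1.19 in ANP rats, against 0.457, 0.740 and 0.693 in VC rats, and did not overlap (0.82 ± 0.20, adjusted p = 0.039). Ccne1 and Pcna were the other members without overlap, for 5 in all (background 18.6%). Ccne1 read 0.232, 0.171 and 0.128 in ANP rats, against 0.0329, 0.0937 and 0.115 in VC rats, and did not pass the threshold (1.28 ± 0.41, adjusted p = 0.0865). Aurkb was well above background on 2 ANP arrays and 0 VC arrays of day 28. Its groups overlapped and it did not pass (adjusted p = 0.594), so no fold is read from it.

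The day 28 arrays of the treatments lay on different slides (slide 3 for ANP, slide 2 for VC), so slide and treatment cannot be told apart at that day. The 3 calls became 0 without VC replicate 1, VC replicate 2 or ANP replicate 2 of day 28, 1 without ANP replicate 1 of day 28 and 1 without any of the 3 ANP replicates of day 14. Over all genes, 532 were higher with all arrays. Without the same day 28 arrays, in the same order, 146, 149, 180 and 344 were higher. Without ANP replicates 1, 2 and 3 of day 14, 434, 443 and 378 were higher. The cortical marker median was 0.64 to 1.17 in ANP rats at day 28, against 1.39 to 2.01 in VC rats, and the glomerular one 0.58 to 0.92, against 1.66 to 2.18, and their part in the ANP difference was not tested. The tubular injury list (10 of 11 markers) had medians of -0.04 to 0.04 in ANP rats at day 28, against -0.11 to 0.05 in VC rats. The erythroid list (3 of 4 markers) was at 0.16 to 0.74 in ANP rats at day 28, against -0.60 to -0.35 in VC rats, with 3 of 3 markers higher past the threshold (median log2 difference 0.94), and its part was not tested either. The collecting duct markers were lower in ANP rats for 5 of 5 (median -0.38, 1 past the threshold) and the lymphocyte markers for 5 of 6 (median -0.67, 0 past the threshold).

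Averaged over both days, the ANP effect passed for 7 members, all higher, which were 4 replication genes, 2 G1/S genes and 1 mitotic gene (background 6.14% higher and 4.08% lower). The replication genes were Mcm6 (0.71 ± 0.17, adjusted p = 0.0271), Tk1 (0.61 ± 0.11, adjusted p = 0.00885), Pcna (0.22 ± 0.06, adjusted p = 0.0498) and Rrm1 (0.25 ± 0.07, adjusted p = 0.0456). The G1/S genes were E2f1 (0.91 ± 0.13, adjusted p = 0.00326) and Chek1 (0.71 ± 0.15, adjusted p = 0.0199). The mitotic gene was Birc5 (0.91 ± 0.14, adjusted p = 0.0056), which inhibits apoptosis as well as serving in mitosis. Birc5 had 1.88, 1.66 and 1.64 in ANP rats at day 14, against 0.981, 0.661 and 0.978 in VC rats, so that all 6 ANP arrays lay above the VC arrays of their day. Tk1 had 2.73, 2.67 and 2.81 in ANP rats at day 14, against 2.05, 1.71 and 1.72 in VC rats, and E2f1 had 0.880, 1.22 and 1.00, against 0.626, 0.504 and 0.610. Both genes were higher in 6 of 6 ANP arrays than in any VC array of the same day. Pcna had 4.21, 4.64 and 4.13 in ANP rats at day 14, against 3.83, 3.96 and 3.70 in VC rats, and 4.39, 4.20 and 3.60 at day 28, against 3.45, 3.26 and 3.34, a small difference with little spread. The class medians were 0.30 for replication, 0.71 for G1/S and 0.25 for mitotic genes (0.16 without ANP day 28 replicate 1), against 0.01 for all genes.

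Birc5, E2f1 and Tk1 passed for the mean effect in all 21 alternatives run, Chek1 in 20, Mcm6 in 15, Rrm1 in 7 and Pcna in 6. Slide as a fixed block is not among them, because slide and treatment cannot be told apart at day 28. The glomerular markers were lower for 5 of 5 in the mean ANP effect, all past the threshold (median -1.17), and their part was not tested. The count of 7 became 3 without VC day 28 replicate 1, and 4 without VC day 28 replicate 2, VC day 14 replicate 2, ANP day 14 replicate 3 or ANP day 28 replicate 1. Over all genes, 728 were higher with all arrays, and 394, 389, 487, 408 and 673 without these arrays in the same order. Replication and mitotic genes differed in their share of calls (4 of 10 and 1 of 21) more than in their medians (0.30 and 0.25), and the difference between the classes was not tested. The ANP effect itself was not shown to differ between days for any member (0 of 36 past the threshold, and 0% higher and 0% lower of all genes in limma). At an unadjusted p under 0.05 it differed for 2 of 36 members, Ccne2 and Tpx2, against 9.27% of all genes. For Ccne2 the ANP difference was 0.01 at day 28 and 0.66 at day 14, and for Tpx2 -0.14 and 0.56.

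**Figure D4:**
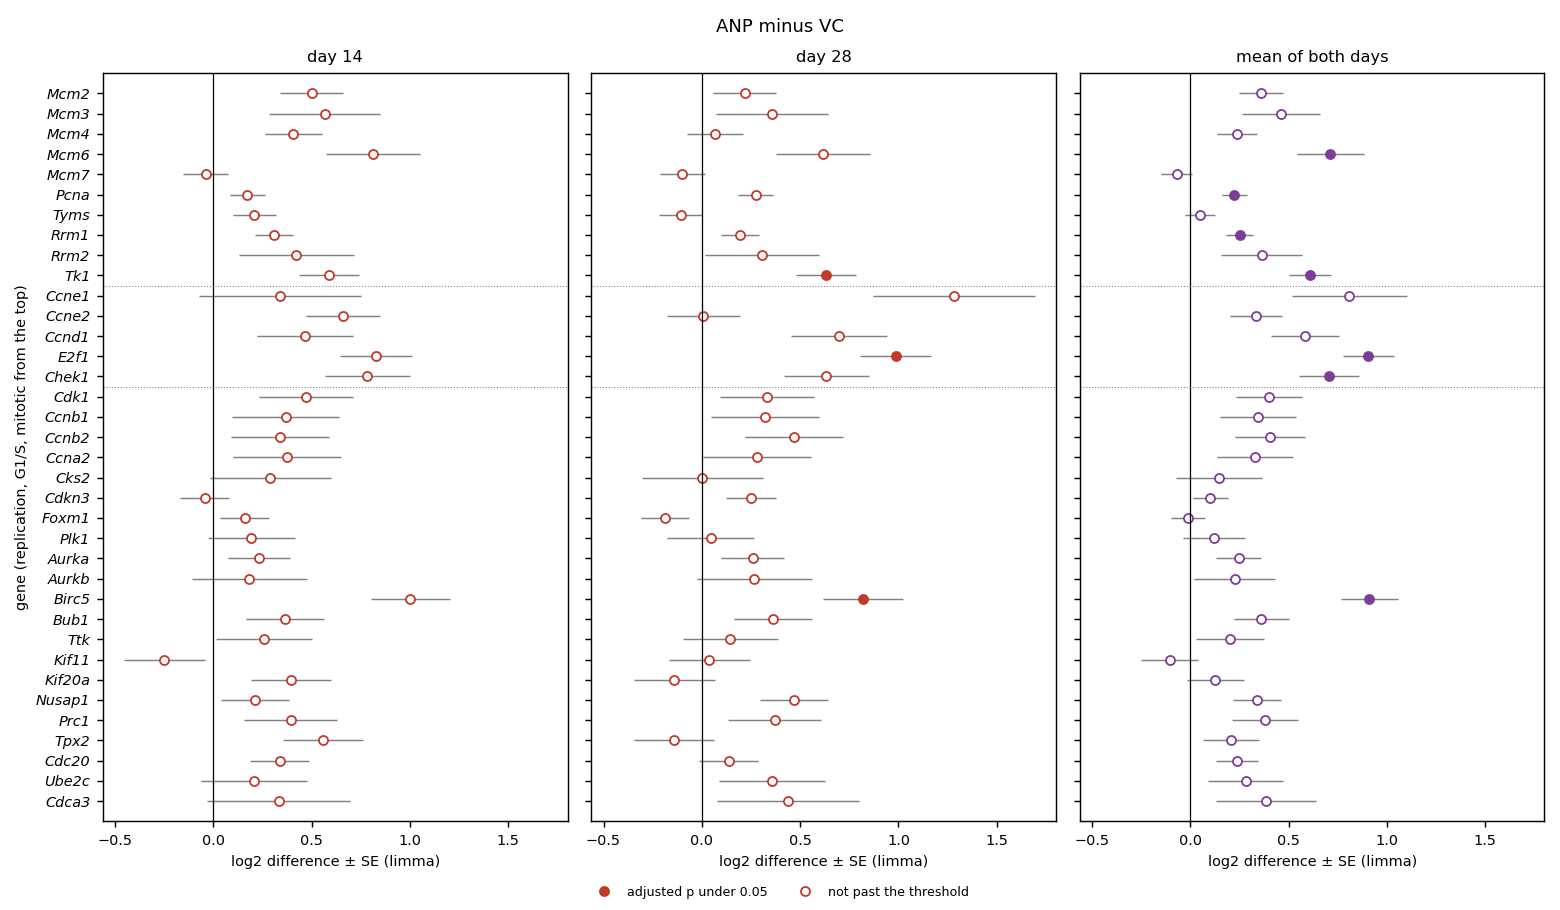
Log2 difference between ANP and VC (x axis, ± SE from limma, 3 arrays a group) for each of the 36 genes at day 14, at day 28 and averaged over both; filled points passed an adjusted p of 0.05. Most points lie right of 0 in each panel, with 0, 3 and 7 filled points.

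Set side by side, the VC difference between days was larger in size than the ANP difference at day 28 for 20 of 21 mitotic genes, 6 of 10 replication genes and 2 of 5 G1/S genes (28 of 36 in all). These differences share the VC day 28 arrays, so the counts describe the sizes and are not a test. At day 14, where the shared arrays are those of VC day 14, the counts were 17 of 21, 6 of 10 and 2 of 5. The ANP day 28 mean lay between the VC day 28 and VC day 14 means for 15 of 21 mitotic, 4 of 10 replication and 2 of 5 G1/S genes, and above both for 3, 4 and 3. The difference between the classes was not tested, and genes within a class varied, as examples chosen after their values were seen show. For Mcm6, Tk1 and E2f1, which passed for the mean ANP effect, the log2 ANP difference averaged over days was 0.71, 0.61 and 0.91, beside VC differences between days of -0.85, -0.50 and -0.68. For the replication genes Mcm7 and Rrm2, which did not pass, it was -0.07 and 0.36, beside -0.35 and -0.73. The mitotic genes Plk1, Ttk and Kif20a had mean ANP differences of 0.12, 0.20 and 0.13 beside VC differences between days of -0.94, -0.86 and -0.82, whereas Birc5, also mitotic, had 0.91 beside -0.48.

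**Figure D5:**
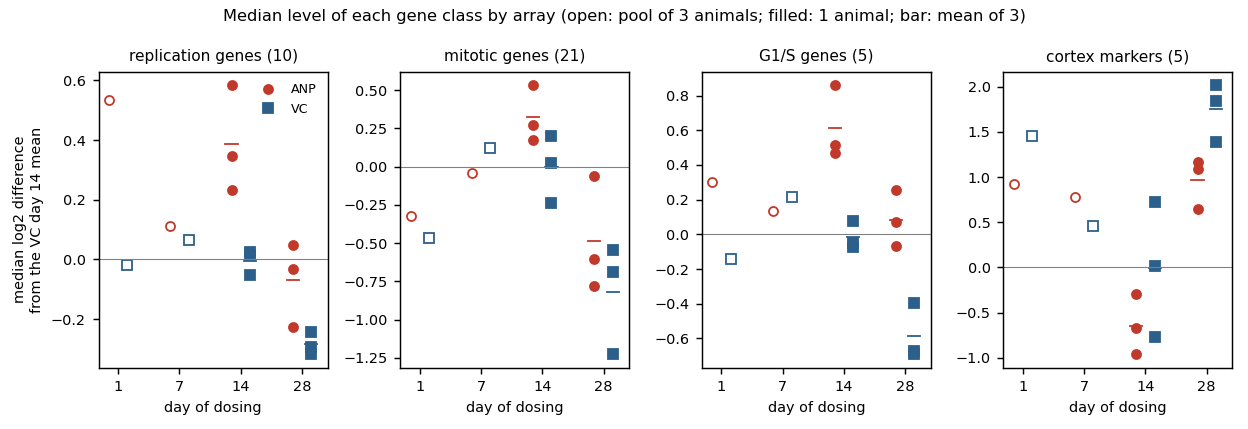
Median log2 difference from the VC day 14 mean (y axis) of the replication, mitotic and G1/S genes and of 5 cortical tubule markers on each array, by day of dosing (ANP circles left of VC squares; open symbols are pools of 3 rats, filled symbols single rats, bars the mean of 3). Mitotic medians at day 28 lie between -0.78 and -0.06 in ANP rats and between -1.22 and -0.55 in VC rats, below every day 14 array except that ANP replicate 1 of day 28 lies above VC replicate 3 of day 14.

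The early pools of 1 array a group have no replicate check, so they give values and no test. At day 1 the replication genes were higher in the ANP pool than in the VC pool for 9 of 10 genes (median 0.54), and the mitotic genes for 12 of 21 (median 0.13), with a median of -0.04 over all genes. The members at least 2-fold higher were Ccne1, Mcm3, Cks2, Tpx2 and Mcm6 (5 of 36, background 4.83%), and 0 were at least 2-fold lower (background 4.95%). Ccne1 had a relative signal of 0.556 in the ANP pool, against 0.136 in the VC pool (log2 difference 2.03). Mcm3 had 2.30, against 0.913, and Mcm6 0.322, against 0.160. Chek1 stood just short of that fold at 0.97, and Tyms and Mcm2 gave 0.63 and 0.81. Ccnd1 and Birc5 had the lowest values, with 15.0 for Ccnd1 in the ANP pool, against 26.3 in the VC pool (-0.81), and 0.581 for Birc5, against 1.00 (-0.79). The tubular injury markers stood with the replication genes in that ANP pool, with a median of 1.82 in the ANP pool, against 0.08 in the VC pool, and their part was not tested. The straight proximal tubule markers were lower in the ANP pool for 6 of 6 (median log2 difference -0.76). Their summed signal was 467 in the ANP pool, against 788 in the VC pool, and their part was not tested either.

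At day 7 the pools differed little. The medians were 0.10 for replication, -0.08 for G1/S and -0.18 for mitotic genes, beside 0.04 for all genes, and no member reached 2-fold in either direction (0 of 36, background 2.12% higher and 2.53% lower). The mitotic genes were lower in the ANP pool for 17 of 21. Kif11 had the largest value, with 4.55 in the ANP pool, against 2.42 in the VC pool (0.91), and Rrm2 the lowest, with 1.57, against 2.39 (-0.60).

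Within each group of days 14 and 28 the mitotic genes were mostly highest or lowest on the same array. Each of these arrays held 1 rat, so rat and array cannot be told apart, and the same count over all genes was not made. ANP replicate 2 was the highest of its group at day 14 for 18 of 21 mitotic and 7 of 10 replication genes, and its tubular injury median was 1.24, against 0.09 and 0.33 in the other ANP replicates. In VC rats of day 14, replicate 1 was the highest for 18 and replicate 3 the lowest for 17 of 21 mitotic genes. At day 28, ANP replicate 1 was the highest for 18 of 21 mitotic genes and VC replicate 1 the lowest for 19. For Cdca3, a protein of mitotic entry, ANP replicate 1 of day 28 read 1.20, and the other ANP replicates 0.498 and 0.399. For Ube2c, the ubiquitin-conjugating enzyme of mitotic exit, the same 3 arrays read 0.406, 0.177 and 0.235.

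Other genes of the same processes, from lists that hold no member, gave counts in the same directions. Like the members, these lists were chosen with earlier results of these data known, so their counts are not separate support. Between the days, 8 of 34 other mitotic genes fell in ANP rats (background 1.73%) and 12 of 34 in VC rats (background 4.16%), with 0 higher in either. Without the genes dim on an array of days 14 or 28, 8 of 30 fell in ANP rats and 11 of 30 in VC rats. Cenpf, a kinetochore protein, fell by 2.68-fold in ANP rats (adjusted p = 0.0291) and 2.37-fold in VC rats (adjusted p = 0.0184), and Espl1, the separase, by 2.27-fold and 2.14-fold. Ckap2 and Pttg1 also fell in both treatments, Cdca2, Dlgap5, Kif22 and Kif23 in ANP rats, and in VC rats Cep55, Cdca8, Tacc3 and Cdca7 completed the 8 with the smallest adjusted p. Of 38 other replication genes, 4 fell in ANP rats (Gins2, Gins3, Gins4 and Pold1), against a background of 1.73%. In VC rats 3 fell (Cdc6, Chaf1b and Pola2), against a background of 4.16%, and 1 rose (Pola1), against 6.99%. The fall of Pola2, which was dim on the VC arrays of day 28, supports nothing. Without dim genes the count in VC rats is 2 of 36, a share near the background. Pola1 and Pola2 encode subunits of the same polymerase. Pola1 differed by 0.73 ± 0.17 in VC rats, and Pola2, not well above background on any VC array of day 28 and tested through the other groups, was at least 2.55-fold lower there (adjusted p = 0.0219).

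For the mean ANP effect, 9 of 38 other replication genes rose (background 6.14%) and 0 fell. The helicase activator Gins1 rose by 1.89-fold (0.92 ± 0.15, adjusted p = 0.00688) and Cdt1, which loads the Mcm helicase, by 1.84-fold (adjusted p = 0.0144). Cdc45, Rfc4, Chaf1b, Cdc6 and Gins4 also rose. The count includes Pole2, which was not well above background on any VC array and passed the filter only through ANP rats of day 14, where it was high, so it supports nothing, and without it the count is 8. Of 34 other mitotic genes 3 rose (Cdca7, dim on 1 VC array of day 28, Cenpn and Stmn1) and 1, the passenger complex gene Cdca8, fell (-0.40 ± 0.11, adjusted p = 0.0413). These shares are near the background of 6.14% higher and 4.08% lower. At day 28 alone 4 of 38 other replication genes (Cdc6, Chaf1b, Gins1 and Rfc4) rose in ANP rats and 1 (Pola1) fell. The background there was 4.49% higher and 2.69% lower. Of 34 other mitotic genes 2 rose (Cdca7 and Cenpn) and 0 fell, and without dim genes 1 of 30 rose, so that the mitotic share is near the background. At day 14 none of these lists gave a call in limma, with 11 of 38 other replication and 5 of 34 other mitotic genes at an unadjusted p under 0.05, against 13.4% of all genes, so that the mitotic share is near the background.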

How the data were processed

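Total RNA of the rat renal outer medulla was labelled with Cy3 and hybridised to Agilent arrays, and per the submitters' processing notes the spots were read by Agilent Feature Extraction 10.7. The authors deposited the scanner's intensity per probe, already background-subtracted, per the file headers, which are annotated on rn4. The authors also deposited a value table, a linear ratio that matched the processed intensity divided by the 75th percentile of its array on each array (r of at least 0.9999, column medians of 0.099 to 0.108). For this work, the log2 of the processed signal minus the log2 75th percentile of the array was used. Control spots and outlier spots (0 to 9 per array) were left out, and 0 spots were saturated.

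Probes were named through their RefSeq accession (27460 of 61657 probes, 15284 genes). Each gene kept its brightest probe by mean signal on the 12 arrays of days 14 and 28. A gene was tested where at least 1 of the 4 groups had this probe well above background on each of its 3 arrays, which left 11849 genes. For 19 members with several passing probes, probes disagreed in sign for Mcm4 at day 14, for Rrm1 and Rrm2 at day 28 and for Rrm1 between the VC days. The 12 arrays were fitted with limma 3.58.1 in R 4.3.3 (1 mean a group, eBayes), with Benjamini-Hochberg adjustment over all genes and a threshold of 0.05. The fit was tested on simulated data. The number of arrays, 3 rats a group, limits the precision. Fold changes of dim probes are lower bounds. The pools of days 1 and 7 were compared as values with a fold of 2.

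The members and all lists were chosen with earlier results of these data known. All members are named, and of the other lists those past the threshold are named, up to 8 a list and comparison by adjusted p, except 1 gene that is counted but not reported here. Alternatives were other scalings, normexp of the median signals with quantile normalization, the authors' table, other filters for dim probes, averaging the probes of a gene, only the groups compared, slide as a fixed or random block, the replicate block and leaving out each array in turn. A filter on both pools and the alternatives for the G1/S median were added after seeing the data.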

Additional observations from a re-analysis of the deposited data

Results flagged for a closer look

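For 11 members the ANP pool of day 1 or day 7 lay below its VC pool, while all 3 ANP arrays lay above all 3 VC arrays at day 14 or day 28. Over all genes, 6704 of 12413 lay below 0 in the day 1 pools and 5302 of 12122 in the day 7 pools. The share of all genes with both traits was not counted, so the 11 are not read as a trait of the members. The pools are 1 array a group, so this difference between days was not tested. In the day 1 pools the log2 ANP difference was -0.79 for Birc5, against 1.00 at day 14 and 0.82 at day 28. It was -0.40 for Ccnb2 in the day 1 pools and -0.50 in the day 7 pools, against 0.34 at day 14. Ccnd1 gave -0.81 at day 1 and -0.083 at day 7, against 0.47 at day 14. The signs also differed for Kif20a (-0.20 at day 1 and -0.17 at day 7, against 0.39 at day 14) and Cdc20 (-0.0038 and -0.087, against 0.34). The pool values of Cdc20, of Rrm1 at day 1 and of Mcm4 at day 7 were close to 0, where the sign means little. Rrm1 was at -0.036 at day 1, against 0.31 at day 14. In the day 7 pools alone the difference was -0.25 for Ccne2 (0.66 at day 14), -0.20 for Cdk1 (0.47 at day 14), -0.044 for Mcm4 (0.41 at day 14), -0.18 for Prc1 (0.39 at day 14) and -0.38 for Ccne1 (1.28 at day 28). No technical or biological explanation was tested.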

How the results depend on the processing

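Of 556 counts and class medians under alternatives, 510 were counted as kept and 46 as moved. Results counted as kept could still differ, such as 21 called members against 14 for VC between days with slide as a random block. The mitotic median for ANP against VC at day 28 was 0.05 without ANP day 28 replicate 1, against 0.27 with all arrays. The sign turned for 7 class medians, all of the ANP effect at day 28 minus that at day 14 with 1 array left out, where the ranges were -0.26 to 0.084 for mitotic (-0.045 with all arrays), -0.32 to 0.0022 for replication (-0.16) and -0.0011 to 0.26 for G1/S genes (0.16). The G1/S median without 1 array was 0.55 to 1.00 for ANP against VC at day 28 and -0.74 to -0.30 for VC between days. Of 4746 member ratios 108 turned sign, and 0 of these had been called. The counts of called members moved most. For ANP against VC at day 14 (0 called) normexp gave 2 and slide as a random block 2. At day 28 (3 called) normexp gave 5, the random block 6, and no filter on dim probes, only the groups compared and the replicate block 1 each. For VC between days (14 called) no filter, only the groups compared and the replicate block gave 9 each, slide as a fixed block 0 (and 0 of all genes), the random block 21. For ANP between days (12 called) no filter gave 3, only the groups compared 5, quantile normalization 8 and the random block 21. The estimated slide correlation was -0.089. The replication median for ANP against VC at day 14 was 0.23 with slide as a fixed block, and for VC between days -0.56 with that block and -0.48 with the mean of each gene's probes. Leaving out 1 array at a time gave 0 to 1 called members at day 14, 0 to 4 at day 28, 1 to 19 for VC between days, 0 to 13 for ANP between days and 3 to 6 for the mean ANP effect. Same-numbered ANP and VC arrays did not deviate together in every pair (r = 0.13, 0.07 and 0.14 at day 14 and -0.07, -0.05 and 0.11 at day 28), so the numbers were not taken to pair the animals. With the replicate block, the mean ANP effect had 6 called members and ANP between days 9. No fixed slide block could be fitted for comparisons with ANP day 28, which had a slide of its own. Scaling to the array median moved the split of calls over all genes, to 773 higher and 244 lower for ANP against VC at day 28 (532 and 319 with the 75th percentile), 603 and 164 for ANP between days (428 and 205) and 958 and 357 for the mean ANP effect (728 and 483), and normexp moved it to 69 and 50 at day 14 (43 and 14) and to 415 and 310 for ANP between days. The cause of these moves was not tested.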

Other observations

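Within the 4 pools, which shared 1 slide, the genes can also be followed from day 1 to day 7. Day 7 minus day 1, the mitotic genes had a median log2 difference of 0.28 in the ANP pools (17 of 21 above 0) and 0.56 in the VC pools (20 of 21 above 0). The replication genes had a median of -0.40 in the ANP pools (7 of 10 below 0) and 0.06 in the VC pools (7 of 10 above 0). Each is a comparison of single pools, with no replicate check.

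The inhibitors of cyclin-dependent kinases, the pocket proteins and other G1 genes (23 of 28 tested) showed little shift as a group. Their median was 0.07 for the mean ANP effect, with 3 of 23 higher (background 6.14%) and 0 lower (background 4.08%). Myc, a growth transcription factor, rose by 1.57-fold (log2 difference 0.65 ± 0.14 (SE), limma, adjusted p = 0.0192), Ccng1, a p53 target, by 1.22-fold (adjusted p = 0.0175), and E2f6, a repressor of the E2F family, by 1.25-fold (adjusted p = 0.0412). Gadd45a, a stress gene that restrains the cycle, rose in ANP rats between the days (0.57 ± 0.11, adjusted p = 0.0311). It was the 1 of 23 to do so, a share near the background of 3.61%.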
